A study of Mus musculus with 28 samples.

Results

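The change that smooth muscle medium brought about in O9-1 cells at 21% O2 was compared, gene by gene, with the change that the same medium brought about at 0.5% O2. O9-1 is an established mouse line of cranial neural crest origin. In the embryo these cells form most of the face and part of the wall of the great arteries. The comparison used 14 of the 28 libraries of the study, in 4 groups. Normoxic proliferating cells (n = 4 libraries, at 21% O2) and hypoxic proliferating cells (n = 3, at 0.5% O2) were kept in STO-conditioned DMEM with 15% fetal calf serum, 0.1 mM non-essential amino acids, 55 µM beta-mercaptoethanol, 25 ng/ml bFGF and 5 ng/ml LIF. Normoxic smooth muscle cultures (n = 4, at 21% O2) and hypoxic smooth muscle cultures (n = 3, at 0.5% O2) spent 3 days in DMEM with 10% fetal calf serum, for which the labels list neither bFGF nor LIF. All 4 groups come from the one line, without a genetic change named in the labels. The medium, the withdrawal of the growth factors and the time in culture changed together at each oxygen level, so their parts in a change cannot be told apart. The labels also do not say whether the libraries of a group came from separate cultures, and p-values then measure only the spread between these libraries. The members of the comparison were the 12706 protein-coding genes tested, of 21966 in the count table, after mitochondrial genes and pseudogenes had been left out.

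Neural crest cells that become vascular smooth muscle switch on actin and myosin genes of the contractile apparatus. The transcription factor SRF drives many of these genes together with its partners of the myocardin family, and TGF-beta is a well-known inducer of the switch. Cells of this kind also lay down collagen and elastic fibres, and they leave the cell cycle as they mature. Low oxygen stabilises the HIF transcription factors, which raise genes of glycolysis, glucose uptake and blood vessel growth.

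The 3 hypoxic smooth muscle libraries stood apart from the other 11. Total counts per library ranged from 19869271 to 64693346, and they were 25032622, 19869271 and 20879935 in the hypoxic smooth muscle libraries. The 2 mitochondrial ribosomal RNAs took 12.4% ± 0.849 (SD, n = 3) of all counts in these 3 libraries and between 0.0252% and 0.0889% in the other 11. Messenger RNAs of ribosomal proteins took 27.7% ± 0.962 (SD, n = 3) of the counts used for the tests, whereas the share in the normoxic cultures in that medium was 4.19% ± 0.245 (SD, n = 4). The scaling factors computed by the trimmed mean of M values (TMM) were 0.521 to 0.551 in these libraries and 1.12 to 1.27 in the others. Changes below are therefore relative to the bulk of genes in each library. Scaling by library totals alone moved the median oxygen difference of all protein-coding genes from -0.08 to -1.26 on the log2 scale and the share of called genes that were higher from 48.9% to 17.5%. It also moved the median hypoxic change from -0.14 to -1.20, so a hypoxic change printed below as a value between 0 and 1 was below 0 under it. Its main effects on a gene group are given with that group, and it is named library-total scaling below. Under it the oxygen difference was called in 10260 of 12706 protein-coding genes, and 17.5% of these were higher. Each count under library-total scaling below stands against that split, in which most calls over all genes were lower. The part of these RNA shares in the results was not tested. Replicate 4 of both normoxic groups also differed more from its group than the others did, with a chi-square per gene of 14.5 to 23.2 against 4.95 to 7.84 between the other normoxic replicates. The hypoxic smooth muscle libraries were about as far from each other, at 13.0 to 21.4, and the hypoxic proliferating ones closer, at 3.94 to 8.84. With normoxic replicates 1 to 3 alone, 1378 genes were kept, 2351 lost and 751 reversed by the definitions below. In bulk RNA, fewer cells of a type and less RNA per cell cannot be told apart either.

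Acta2 encodes smooth muscle alpha-actin, the actin of the contractile fibres and the most used marker of the lineage. Its gene (ENSMUSG00000035783) lies on the minus strand of chromosome 19, at 34241090 to 34255590 in GRCm38. The Acta2 level was 43.7, 42.6, 45.7 and 40.2 CPM (counts per 1000000 TMM-scaled counts) in the normoxic proliferating libraries and 3571, 3245, 3553 and 3135 CPM in the normoxic smooth muscle libraries. At 0.5% O2 it was 32.5, 33.9 and 26.3 CPM in proliferating and 21.7, 16.4 and 34.9 CPM in smooth muscle libraries. Both normoxic groups were far apart, whereas the hypoxic smooth muscle libraries overlapped the hypoxic proliferating ones and none reached the lowest normoxic proliferating library. The log2 change was 6.29 ± 0.16 (SE) at 21% O2 and -0.34 ± 0.18 (SE) at 0.5% O2, where the adjusted p was 0.098 (edgeR quasi-likelihood test, Benjamini-Hochberg adjustment over 14635 genes, as for all adjusted p-values below). The oxygen difference, the change at 0.5% O2 minus the change at 21% O2, was -6.64 ± 0.23 (SE) with an adjusted p of 3.2e-13. Leaving out single libraries kept it between -6.99 and -6.44. The hypoxic change itself was called as a fall without hypoxic smooth muscle replicate 3 (-0.70, adjusted p = 6e-05) and without hypoxic proliferating replicate 3 (-0.45, adjusted p = 0.044). The fall was also called when no filter on low counts was applied (-0.40, adjusted p = 1.3e-05). It was -1.40 under library-total scaling (adjusted p = 4.6e-06).

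Igsf10 encodes a large secreted protein of the immunoglobulin superfamily. Its gene (ENSMUSG00000036334) is on the minus strand of chromosome 3, at 59316735 to 59344394 in GRCm38. Igsf10 stood at 2.55, 2.46, 2.24 and 3.81 CPM in normoxic proliferating libraries and at 340, 347, 321 and 330 CPM in normoxic smooth muscle libraries. The hypoxic proliferating libraries held 12.1, 11.8 and 15.3 CPM and the hypoxic smooth muscle libraries 1.65, 0.118 and 1.94 CPM. Hypoxic proliferating cells thus lay above normoxic ones, and the 3 hypoxic smooth muscle libraries were the lowest of all 14. Its log2 change was 6.95 ± 0.17 (SE) at 21% O2 and -3.33 ± 0.30 (SE) at 0.5% O2, so the direction turned. The oxygen difference of Igsf10 was -10.28 ± 0.30 (SE), with an adjusted p of 1.8e-15, and it lay between -10.67 and -9.83 when single libraries were left out.

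The promoters of 2 contractile genes are shown because the contractile genes moved together and SRF binds the CArG box, whose matches stand in capitals below. Each runs from 250 bases before to 50 bases after the start of the RefSeq gene on its own strand (GRCm38.p6). That of Acta2 is at chr19:34255324-34255623 (minus strand) and that of Myl9, which encodes the regulatory light chain of smooth muscle myosin, at chr2:156775214-156775513 (plus strand).
Acta2: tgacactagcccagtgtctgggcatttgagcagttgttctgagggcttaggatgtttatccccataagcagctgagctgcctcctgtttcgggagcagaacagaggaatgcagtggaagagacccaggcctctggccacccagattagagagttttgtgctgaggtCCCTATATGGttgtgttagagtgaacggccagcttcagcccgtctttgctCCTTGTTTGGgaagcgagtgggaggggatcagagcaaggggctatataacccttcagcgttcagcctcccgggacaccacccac
Myl9: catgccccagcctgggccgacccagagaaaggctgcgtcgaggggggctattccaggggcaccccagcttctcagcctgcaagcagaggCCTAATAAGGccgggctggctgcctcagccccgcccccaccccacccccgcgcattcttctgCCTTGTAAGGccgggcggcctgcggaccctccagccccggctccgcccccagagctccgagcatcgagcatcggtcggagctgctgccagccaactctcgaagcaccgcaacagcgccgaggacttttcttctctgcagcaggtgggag
The Acta2 window holds 2 matches with a single G or C allowed among the central A and T bases, which begin 84 and 34 bases before the start. The Myl9 window holds an exact match that begins 161 bases and a further match with a single G or C that begins 99 bases before the start. The CArG box was searched by name on both strands, in its exact form and with a single G or C allowed. An exact match was present in 2 of 15 contractile genes with a promoter sequence (13.3%; Cnn2 and Myl9) and in 135 of 9923 protein-coding genes with one (1.36%). With a single G or C allowed, the numbers were 4 of 15 (26.7%; Acta2, Cnn2, Jph2 and Myl9) and 874 of 9923 (8.81%). Acta2 and Jph2 lost their rise at 0.5% O2 and Cnn2 and Myl9 kept part of it, so genes with matches were found in both classes. Library-total scaling put Acta2 among the reversed rises, Cnn2 and Myl9 among the lost ones and Jph2 in no class.

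**Figure D1:**
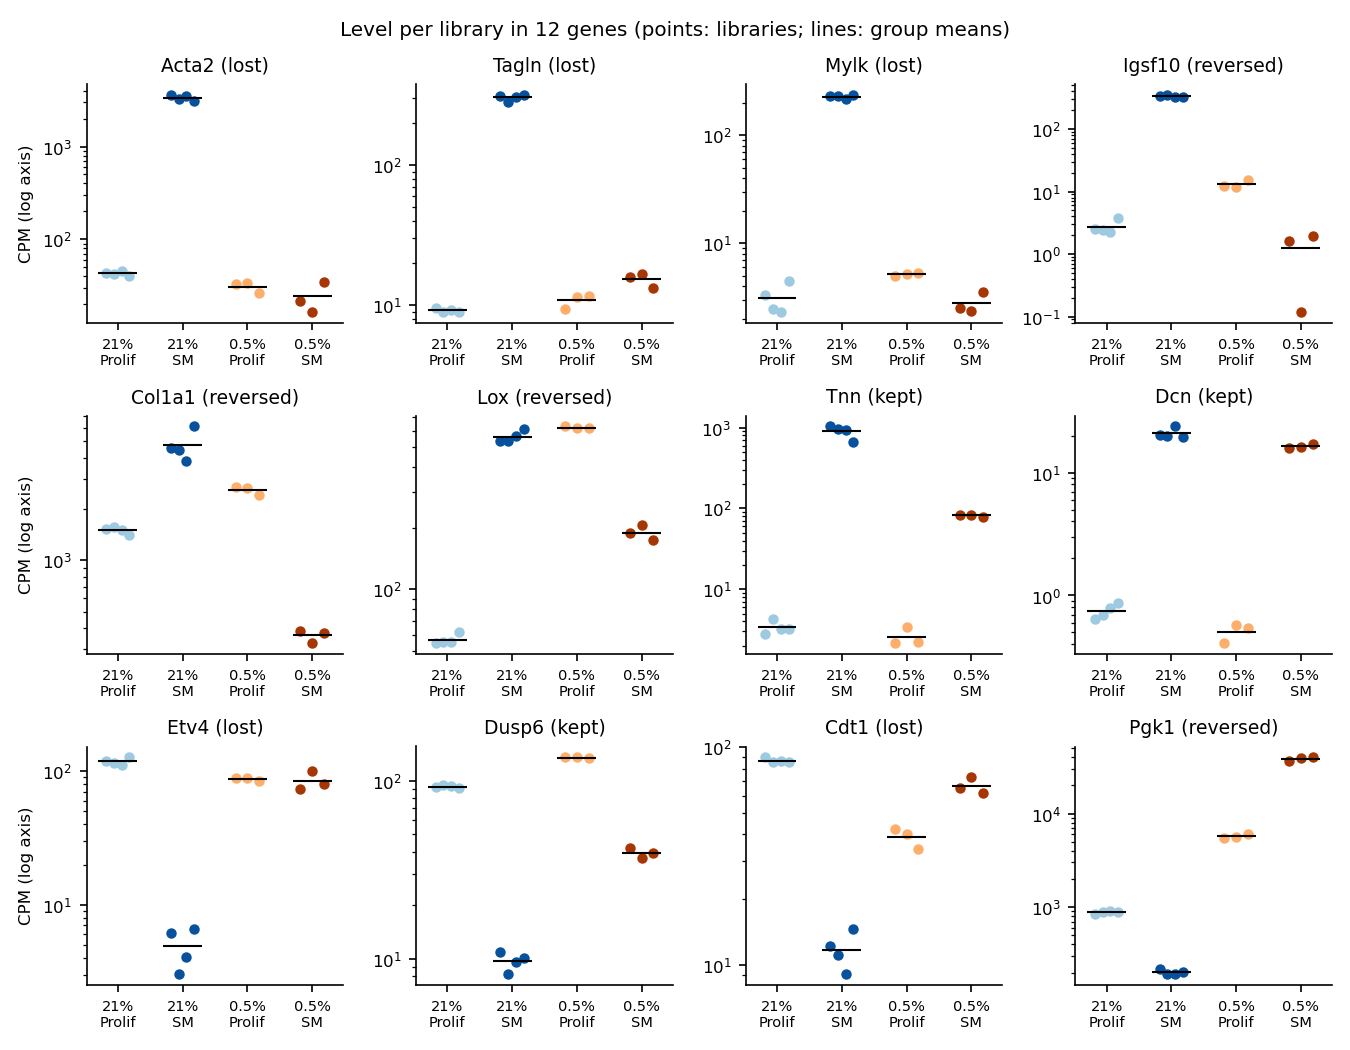
Level of 12 genes in CPM on log axes, by group, with a point for each library and a line at the group mean; the class of each gene is in brackets (Prolif, proliferating; SM, smooth muscle medium). In the panels of Acta2, Tagln and Mylk the normoxic smooth muscle libraries stand far above the other 3 groups, Dcn is high in smooth muscle cultures at both oxygen levels, and Pgk1 is lowest in normoxic and highest in hypoxic smooth muscle cultures.

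Most of what smooth muscle medium changed at 21% O2 was not changed in the same way at 0.5% O2. A gene was counted as changed when its adjusted p was under 0.05 and its log2 change at least 1 in size, whereas rose, fell and called refer to the adjusted p alone. At 21% O2, 4977 of 12706 genes changed (39.2%), with 2735 up (21.5%) and 2242 down (17.6%), and at 0.5% O2 4963 did (39.1%), with 2375 up (18.7%) and 2588 down (20.4%). Of the 4977 normoxic changes, 1358 (27.3%) were kept, meaning that they were also called at 0.5% O2 in the same direction with a log2 size of at least 1. A further 2273 (45.7%) were lost, with a called oxygen difference against the normoxic change and a hypoxic log2 change under 1 in size. Another 731 (14.7%) were reversed, with a called oxygen difference and a called hypoxic change in the opposite direction of at least 1 in log2 size. The other 615 (12.4%) met none of the 3 definitions. A lost gene may still carry a called hypoxic change under 1 in size, in either direction. There were 2623 gained changes, called at 0.5% O2 with a log2 size of at least 1, under 1 in size at 21% O2 and with a called oxygen difference of the same sign, which is 52.9% of the hypoxic changes. Over all protein-coding genes, the oxygen difference was called in 9517, or 74.9% of those tested, with 4656 higher (36.6%) and 4861 lower (38.3%) at 0.5% O2.

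Rises and falls were spread differently over the classes, in a way that depended on the scaling. Of the 2735 normoxic rises, 722 were kept, 1058 lost and 490 reversed, which is 5.68%, 8.33% and 3.86% of the genes tested. Of the 2242 falls, 636 were kept, 1215 lost and 241 reversed (5.01%, 9.56% and 1.9% of the genes tested). Library-total scaling turned the contrast of kept and lost round. It gave 348 kept, 1003 lost and 1308 reversed rises, and 1338 kept, 452 lost and 59 reversed falls. Gained changes were 1271 rises (10%) and 1352 falls (10.6%), but 362 rises and 4124 falls under library-total scaling. In both directions together, kept, lost, reversed and gained genes made up 10.7%, 17.9%, 5.75% and 20.6% of the genes tested. Kept rises had a median log2 change of 2.40 at 21% and 2.13 at 0.5% O2, and lost rises of 1.76 and -0.07. Reversed rises went from a median of 1.77 to -1.78. The median level in hypoxic proliferating cells was already higher than in normoxic proliferating cells by a log2 of 0.48 for kept, 0.53 for lost and 0.79 for reversed rises. Among the kept genes the oxygen difference was called in 710, of which 485 had the smaller change at 0.5% O2 and 225 the larger, and in 648 it was not called. Membership of the classes depended on the scaling. Under library-total scaling, 330 of the 722 kept rises and 445 of the 1058 lost rises were in the same class, as were all 490 reversed rises, 583 of 636 kept falls and 1286 of 1352 gained falls. By contrast, 317 of 1215 lost falls, 59 of 241 reversed falls and 348 of 1271 gained rises remained in theirs. Reversed rises, kept falls and gained falls also took in many further genes under that scaling, by the totals above.

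**Figure D2:**
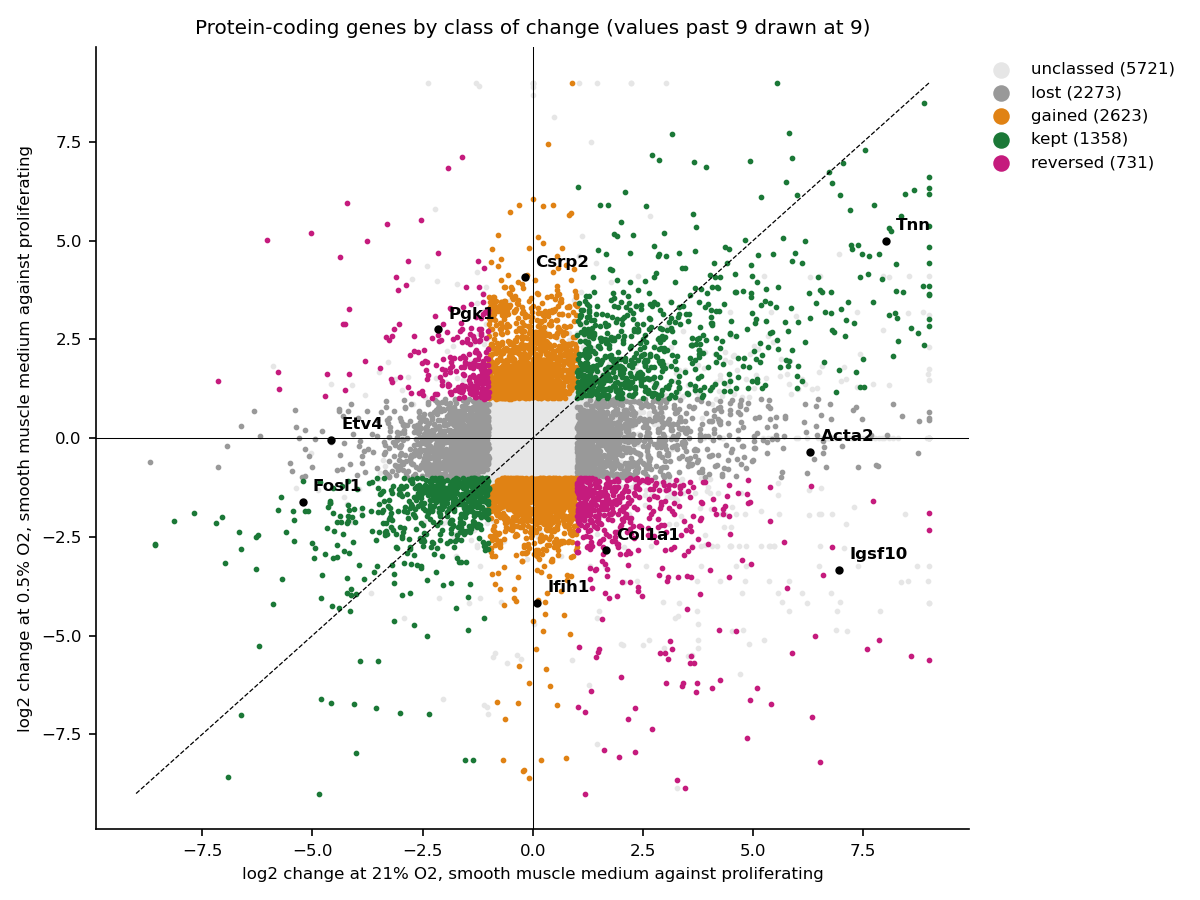
Log2 change in smooth muscle medium at 0.5% O2 (y axis) against that at 21% O2 (x axis) for each of the 12706 protein-coding genes, coloured by class, with the line of equal change dashed and values past 9 drawn at 9. Lost genes (2273) form the band around 0 on the y axis, reversed genes (731) the upper left and lower right fields, kept genes (1358) the other corner fields, and gained genes (2623) the blocks above and below the centre.

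Within each class the named genes covered different parts of cell biology. Among kept rises were Tnn (tenascin N, a matrix glycoprotein), Dcn (the collagen-binding proteoglycan decorin), Dact1 (a Wnt pathway regulator) and Rab3il1 (a guanine nucleotide exchange factor for Rab proteins). Dact1 had log2 changes of 7.22 at 21% and 4.88 at 0.5% O2, and its called oxygen difference of -2.34 was no longer called without hypoxic proliferating replicate 1. Kept falls included Tmem74 (-4.22 and -3.93), Pcdh20 (protocadherin 20, -3.61 and -3.38) and Dkk2 (a secreted Wnt modulator, -3.54 and -3.25), each written as the log2 change at 21% and then at 0.5% O2. The called oxygen difference of Dkk2 was 0.29, with an adjusted p of 0.047 that reached 0.356 when single libraries were left out, and it was -0.90 under library-total scaling, where Tmem74 (-0.89) and Pcdh20 (-0.95) also had values below 0. Among lost rises that averaged 10 counts or more in each of the 4 groups, without overlap between the normoxic ones, the largest oxygen differences were in Col11a1 (a minor fibrillar collagen chain, 8.37 and 0.57), Mylk (6.22 and -0.88), Kctd12 (7.47 and 0.49) and Nrep (6.60 and -0.22). Differences were larger in some lost rises with fewer counts in a group, such as Col8a2 (a chain of type VIII collagen, 10.82 and 0.50) and Lmod1 (leiomodin, an actin nucleator of smooth muscle, 8.75 and -0.38). By the same limits, lost falls were led by Upp1 (uridine phosphorylase, -5.36 and 0.27), Car12 (a membrane carbonic anhydrase, -5.31 and -0.01) and Hmga1 (an architectural chromatin protein, -4.40 and 0.74). Library-total scaling made Car12 a kept fall, Nrep and Mylk reversed rises and Trps1, named below, a reversed rise, left Lmod1 in no class, and turned the hypoxic change of Upp1 to -0.80 and that of Hmga1 to -0.33. Hmga1 has a near-identical copy, Hmga1b, and its counts are uncertain for that reason. Among reversed rises, Sfrp1, a secreted Wnt inhibitor, changed by 5.39 at 21% and by -1.23 at 0.5% O2, and Sulf1, which trims heparan sulphate outside the cell, by 4.45 and -1.97. Gained rises included Nr1d1, a repressor of the circadian clock (-0.80 and 4.37), the ATP receptor gene P2rx7 (-0.72 and 4.00) and the heat shock gene Hspa1a (-0.32 and 5.91). Gained falls included Cd248 (endosialin, a receptor of stromal cells, 0.77 and -3.58), Trps1 (a GATA-type repressor of skeletal development, 0.92 and -2.996) and the cholesterol exporter gene Abca1 (0.45 and -3.12).

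Contractile genes rose at 21% O2, and most of them lost that rise at 0.5% O2. All 19 tested members of the 21-gene list were called higher at 21% O2 (39.3% over all genes), 17 of them with a log2 change of at least 1 (over all genes, 21.5% rose that far). At 0.5% O2, 7 were called higher (32.7% over all genes) and 5 lower (40.9%), and 4 rose by at least 1 (18.7% over all genes). Their oxygen difference was called lower in 17 of 19 (38.3% over all genes) and higher in 1, and its median was -4.49 (-4.17 without Actg2, which had 0 counts in a group), against -0.08 over all genes. By class, 4 rises were kept (Cnn2, Myh11, Myl9 and Tpm2; 5.68% over all genes), 10 were lost (8.33%), 1 was reversed (Synpo2; 3.86%) and 4 were in no class. The lost rises included those of Acta2, Tagln, Mylk, Smtn, Cald1, Tpm1, Lmod1, Itga8 and Jph2. Smtn (smoothelin) changed by 2.19 at 21% and by -0.90 at 0.5% O2, Cald1 (caldesmon, a brake on actin and myosin) by 1.56 and -0.84, Tpm1 (a tropomyosin) by 2.17 and 0.13, and Itga8 (an integrin chain of smooth muscle) by 5.38 and 0.48. The class of 9 members depended on a single library. For example, Smtn was reversed without hypoxic smooth muscle replicate 1, Mylk was reversed without hypoxic smooth muscle replicate 3, and Myh11 was not kept without hypoxic smooth muscle replicate 1. Library-total scaling left no contractile gene kept, 7 lost and 7 reversed, Acta2, Mylk, Smtn and Cald1 among the latter, and turned the called hypoxic change of Itga8 to -0.58.

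Tagln, which encodes the actin-binding protein transgelin, stood at 9.51, 8.94, 9.33 and 8.96 CPM in normoxic proliferating and 311, 281, 308 and 315 CPM in normoxic smooth muscle libraries. The hypoxic proliferating libraries held 9.34, 11.5 and 11.7 CPM of Tagln and the hypoxic smooth muscle libraries 16, 16.8 and 13.2 CPM. The hypoxic groups did not overlap but were close, with a log2 change of 0.50 that was called and that turned to -0.56 under library-total scaling. The oxygen difference of Tagln was -4.55 ± 0.13 (SE). Mylk encodes the kinase that triggers contraction by phosphorylating the myosin light chain. It was at 3.3, 2.46, 2.31 and 4.5 CPM in normoxic proliferating and at 230, 231, 218 and 234 CPM in normoxic smooth muscle libraries. Its hypoxic levels were 4.98, 5.21 and 5.28 CPM in proliferating and 2.52, 2.35 and 3.55 CPM in smooth muscle libraries, so the hypoxic smooth muscle libraries were the lower ones. The oxygen difference of Mylk was -7.10 ± 0.24 (SE).

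Myl9 kept a rise at 0.5% O2, but a small one. Its level was 2.97, 2.69, 2.65 and 4.21 CPM in normoxic proliferating and 501, 478, 534 and 457 CPM in normoxic smooth muscle libraries. At 0.5% O2, Myl9 was at 1.53, 0.799 and 1.08 CPM in proliferating and at 5.47, 1.53 and 3.45 CPM in smooth muscle libraries, and these ranges met at 1.53 CPM. The log2 change fell from 7.33 at 21% to 1.66 at 0.5% O2 (oxygen difference -5.67), and the hypoxic value was 0.61 with an adjusted p of 0.15 under library-total scaling. Tpm2, a tropomyosin that winds along actin, was the one contractile gene with a called oxygen difference above 0. Its level was 134, 134, 146 and 129 CPM in normoxic proliferating, 318, 292, 308 and 290 CPM in normoxic smooth muscle, 176, 167 and 178 CPM in hypoxic proliferating and 480, 593 and 501 CPM in hypoxic smooth muscle libraries. Tpm2 rose at both oxygen levels (1.15 and 1.59), with no overlap at either, and the oxygen difference of 0.44 was -0.75 under library-total scaling. Actg2, the enteric smooth muscle actin gene, had 2151 counts over the normoxic and 0 over the hypoxic smooth muscle libraries. Against a floor of 3 counts over the group, its level was at least 157-fold lower at 0.5% O2.

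SRF partners had calls in both directions. Of 11 tested regulators and their actin-linked partners, 5 had a called oxygen difference above and 6 below 0 (36.6% and 38.3% over all genes). Under library-total scaling these became 2 above and 9 below, and the median went from -0.54 to -1.73. Of all genes called under that scaling, 17.5% were higher, and the median over all genes was -1.26. Counts of Myocd, the myocardin gene itself, were 5 over normoxic proliferating and 25 over normoxic smooth muscle libraries and 0 over both hypoxic groups, too few for a test. Srf had log2 changes of -0.19 and 0.64, Mrtfa of 0.62 and -0.42, and Mrtfb of 1.03 and -0.82, at 21% and 0.5% O2. The hypoxic change of Srf turned to -0.42 under library-total scaling, and Mrtfb was then a reversed rise. Csrp2, a LIM protein that assists SRF in smooth muscle, went the other way from the contractile genes. The Csrp2 level was 114 to 124 CPM in the normoxic proliferating and 98.5 to 117 CPM in the normoxic smooth muscle libraries. It was 233, 244 and 253 CPM in hypoxic proliferating and 3780, 4426 and 4067 CPM in hypoxic smooth muscle libraries, which puts all 3 of the latter far above every other library. The log2 change of Csrp2 was -0.18 at 21% and 4.07 at 0.5% O2, and the oxygen difference stayed at 3.06 under library-total scaling.

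In the TGF-beta pathway, 4 of 17 genes had a called oxygen difference above 0 and 10 below (36.6% and 38.3% over all genes). Library-total scaling gave 2 above and 14 below, moved the median from -0.71 to -1.89 and raised the gained falls from 2 to 7. It also moved the median over all genes to -1.26, and 17.5% of all called genes were then higher. The ligand genes Tgfb2 (3.22 at 21% and 1.05 at 0.5% O2) and Tgfb3 (1.71 and -1.08) rose at 21% O2 and did less so, or fell, at 0.5% O2. The hypoxic rise of Tgfb2 was under 1 when hypoxic proliferating replicate 3 or hypoxic smooth muscle replicate 2 was left out. The receptor genes Tgfbr1 (0.36 and -1.02) and Tgfbr2 (0.62 and -1.90) fell at 0.5% O2, Tgfbr1 by less than 1 without hypoxic smooth muscle replicate 2. The target gene Tgfbi, a secreted adhesion protein named for its induction by TGF-beta, rose at both oxygen levels (1.57 and 3.14). Among 10 genes regulated by YAP and TEAD, the effectors of mechanical signalling, 2 oxygen differences were called higher and 7 lower (36.6% and 38.3% over all genes), and 1 and 8 under library-total scaling. The repeat protein gene Ankrd1 fell by 3.13 at 21% and by 0.69 at 0.5% O2 on the log2 scale. With library-total scaling the hypoxic change of Tgfb2 was -0.01 and its rise was lost, whereas the fall of Ankrd1 was kept.

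**Figure D3:**
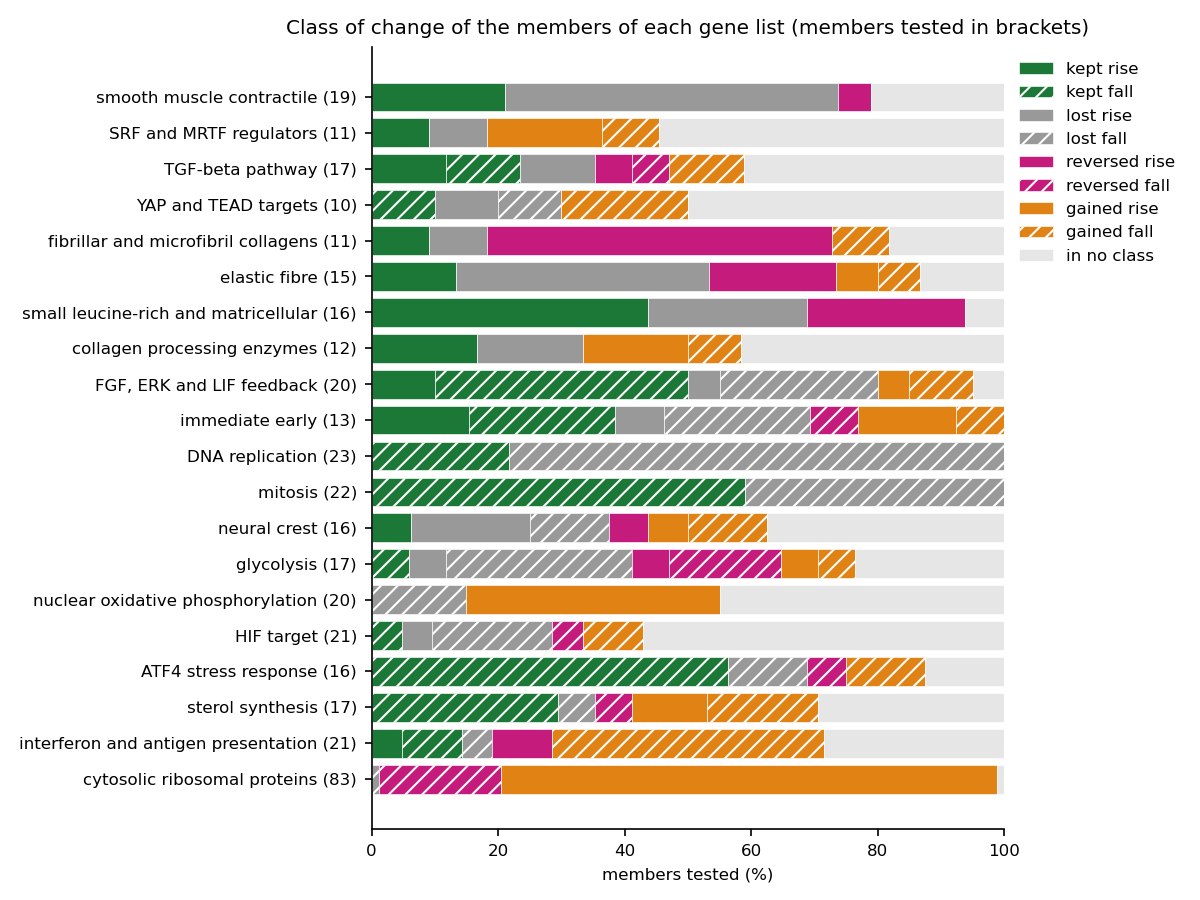
Share of the tested members (%) of 20 gene lists in each class of change, with rises plain, falls hatched and the number tested in brackets. The contractile list is mostly lost rises (10 of 19), the collagens mostly reversed rises (6 of 11), DNA replication mostly lost falls (18 of 23) and ribosomal proteins mostly gained rises (65 of 83).

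Collagen genes went beyond losing their rise. All 11 tested fibrillar and microfibril collagen genes were called higher at 21% O2 (39.3% over all genes), 8 of them by a log2 of at least 1 (21.5%). At 0.5% O2, 8 were called lower and 3 higher (40.9% and 32.7% over all genes), and 6 of the 8 normoxic rises were reversed (Col1a1, Col1a2, Col3a1, Col5a1, Col5a2 and Col5a3; 3.86% over all genes). In 10 of 11 the oxygen difference was called lower (38.3% over all genes), with a median of -2.78. Col1a1, the main chain of type I collagen, was at 1518, 1565, 1508 and 1410 CPM in normoxic proliferating and at 4584, 4437, 3810 and 6105 CPM in normoxic smooth muscle libraries. The hypoxic proliferating libraries held 2683, 2667 and 2422 CPM and the hypoxic smooth muscle libraries 387, 326 and 374 CPM. Hypoxic smooth muscle cultures were thus the lowest of the 4 groups and normoxic ones the highest, without overlap. The oxygen difference of Col1a1 was -4.50 ± 0.16 (SE), with an adjusted p of 6.9e-15, from a change of 1.66 at 21% and -2.84 at 0.5% O2. Col3a1, the type III chain of elastic tissues, was at 496, 508, 502 and 634 CPM in normoxic proliferating and 2506, 2519, 2340 and 2622 CPM in normoxic smooth muscle libraries. At 0.5% O2, Col3a1 stood at 579, 553 and 608 CPM in proliferating and at 109, 113 and 106 CPM in smooth muscle libraries. Col12a1, a collagen of the fibril surface, was the 1 member whose rise was kept, and library-total scaling made it a lost rise, leaving 0 kept. Its level was 23.4 to 39.1 CPM, then 2419 to 2857 CPM, at 21% O2 in proliferating and smooth muscle libraries, and 132 to 141 CPM, then 498 to 541 CPM, at 0.5% O2. The rise of Col12a1 was 6.60 at 21% and 1.94 at 0.5% O2. Type VI chains differed among themselves: Col6a1 rose by 0.75 and 0.77, Col6a2 by 1.13 and 0.60, and Col6a3 by 0.41 before falling by 1.48 at 0.5% O2. The hypoxic changes of Col6a1 and Col6a2 turned to -0.30 and -0.46 under library-total scaling. Col5a2 rose by 1.06 at 21% O2 and was below 1 there without normoxic proliferating replicate 4.

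Most rises of elastic fibre genes were lost or reversed. All 15 were called higher at 21% O2 (39.3% over all genes), 12 of them by at least 1 (21.5%). The oxygen difference was called below 0 in 13 (38.3% over all genes; median -3.78, or -3.31 without Eln, which had 0 counts in both hypoxic groups), while Efemp1 had one above, which was not called above 0 under library-total scaling. Of their rises, 2 were kept (Mfap2 and Mfap4), 6 lost and 3 reversed (Fbn2, Lox and Loxl2), against 5.68%, 8.33% and 3.86% over all genes. Library-total scaling left 0 kept, 4 lost, Mfap2 among them, and 6 reversed, with Mfap4 in no class. Mfap4 was not called at 0.5% O2 without hypoxic smooth muscle replicate 1. Eln, the gene of elastin itself, had 704 counts over the normoxic and 0 over the hypoxic smooth muscle libraries, a level at least 51.5-fold lower at 0.5% O2. Lox encodes lysyl oxidase, the enzyme that cross-links collagen and elastin. It was at 54.4, 55.1, 55.1 and 61.6 CPM in normoxic proliferating and at 531, 532, 563 and 613 CPM in normoxic smooth muscle libraries. Hypoxic proliferating libraries already held 630, 619 and 616 CPM of Lox, above every normoxic smooth muscle library, and hypoxic smooth muscle libraries held 189, 206 and 174 CPM. Its change was 3.31 at 21% and -1.71 at 0.5% O2.

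The small leucine-rich and matricellular proteins were split. All 16 rose at 21% O2 by a log2 of at least 1 (21.5% over all genes). At 0.5% O2, 7 rises were kept (Dcn, Lum, Ogn, Aspn, Bgn, Postn and Tnn; 5.68% over all genes), 4 lost (Thbs1, Thbs2, Sparc and Podn; 8.33%) and 4 reversed (Prelp, Omd, Tnc and Igsf10; 3.86%), and none of these classes turned on a single library. Under library-total scaling 5 were kept, 2 lost (Ogn and Postn) and 8 reversed, the 4 lost genes above among them. Dcn kept its rise in full. The Dcn level was 0.638, 0.697, 0.792 and 0.871 CPM in normoxic proliferating, 20.4, 19.7, 23.8 and 19.5 CPM in normoxic smooth muscle, 0.409, 0.571 and 0.539 CPM in hypoxic proliferating and 15.8, 16.1 and 17 CPM in hypoxic smooth muscle libraries. Both smooth muscle groups stood far above both proliferating groups. The rise of Dcn was 4.82 at 21% and 5.00 at 0.5% O2, and the difference of 0.19 ± 0.28 (SE) was not called (adjusted p = 0.56) and turned to -0.997 under library-total scaling. Postn, encoding periostin, was at 22.1 to 32 CPM in normoxic proliferating, 4281 to 4931 CPM in normoxic smooth muscle, 17.6 to 22.5 CPM in hypoxic proliferating and 46.3 to 52 CPM in hypoxic smooth muscle libraries. Its rise was 7.51 at 21% and 1.29 at 0.5% O2, so a kept rise could still be far smaller. Tnn was at 2.83, 4.32, 3.2 and 3.23 CPM in normoxic proliferating and 1038, 971, 947 and 658 CPM in normoxic smooth muscle libraries. In the hypoxic libraries Tnn went from 2.15, 3.39 and 2.19 CPM to 83.1, 84 and 79.1 CPM, a rise of 5.00 against 8.01 at 21% O2. Fmod, the fibromodulin gene, had 5166 counts over the normoxic and 0 over the hypoxic smooth muscle libraries, a level at least 378-fold lower. Lum, encoding lumican, went from 0 counts over the hypoxic proliferating to 15 over the hypoxic smooth muscle libraries, at least 14.2-fold higher.

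Of 12 collagen processing genes, 3 had a called oxygen difference above 0 and 8 below (36.6% and 38.3% over all genes), and 2 and 10 under library-total scaling. The prolyl hydroxylase gene P4ha1 changed by -0.38 at 21% and by 1.23 at 0.5% O2, and the lysyl hydroxylase gene Plod2 by 0.36 and -1.60. Pcolce (1.42 and 1.53) and Bmp1 (1.23 and 2.03), which act on the propeptide of procollagen, rose at both oxygen levels. Library-total scaling made both of these lost rises and left P4ha1 in no class.

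**Figure D4:**
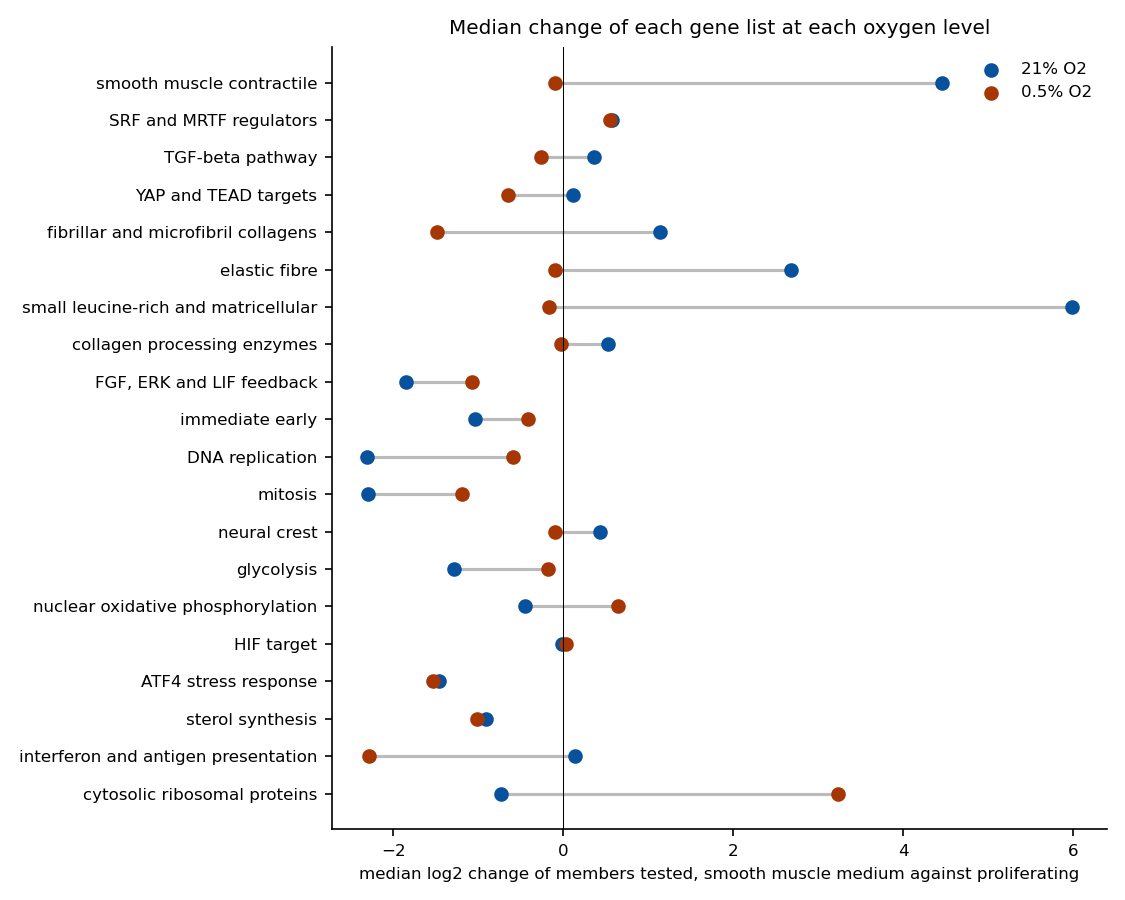
Median log2 change in smooth muscle medium of the tested members of 20 gene lists, at 21% O2 (blue) and 0.5% O2 (brown), joined by a line. The contractile list moves from 4.46 to -0.09, collagens from 1.14 to -1.48, DNA replication from -2.31 to -0.60 and ribosomal proteins from -0.73 to 3.24.

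DNA replication genes fell less at 0.5% O2. All 23 were called lower at 21% O2 (40% over all genes), each by a log2 of at least 1 (17.6% over all genes), with a median of -2.31. At 0.5% O2 the median was -0.60, 16 were called lower and 4 higher (40.9% and 32.7% over all genes), and 5 fell by at least 1 (20.4%). In all 23 the oxygen difference was called higher (36.6% over all genes), with a median of 1.84. That median stayed above 0, at 0.66, under library-total scaling, with 17 called higher and 3 lower, but 18 of the falls were then kept and 4 lost, against 5 kept and 18 lost (5.01% and 9.56% over all genes) here. Cdt1, the licensing factor that loads the replicative helicase, was at 90, 85.3, 86.5 and 85.7 CPM in normoxic proliferating and at 12.2, 11, 9.05 and 14.6 CPM in normoxic smooth muscle libraries. Its hypoxic levels were 41.9, 39.9 and 34.3 CPM in proliferating and 64.8, 73.4 and 61.8 CPM in smooth muscle libraries. Cdt1 was therefore lower in smooth muscle medium at 21% O2 and higher at 0.5% O2, without overlap, and its oxygen difference was 3.67 ± 0.16 (SE). The hypoxic change of 0.78 became -0.28 under library-total scaling. Mcm2, a subunit of that helicase, fell by 2.58 at 21% and by 0.46 at 0.5% O2, and hypoxic proliferating cells held 70.4 to 81.9 CPM of it against 207 to 240 CPM in normoxic ones.

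Mitosis genes fell at both oxygen levels. All 22 fell at 21% O2 by at least 1 (17.6% over all genes; median -2.29). At 0.5% O2, 19 were called lower and 2 higher (40.9% and 32.7% over all genes), 13 of the falls were kept (5.01% over all genes) and 9 lost (9.56%), and the median was -1.19. For 19 of 22 the oxygen difference was called higher (36.6% over all genes), with a median of 1.32. Library-total scaling gave a median of 0.14, 9 called higher and 7 lower, and 20 kept and 2 lost falls. Ube2c, the ubiquitin-conjugating enzyme of mitotic exit, changed by -2.85 at 21% and by 0.34 at 0.5% O2, the latter turning to -0.73 under that scaling, and Ccnb1 (cyclin B1) by -2.75 and -1.12. Cdkn1a, the p21 inhibitor of cyclin-dependent kinases, was at 148, 149, 154 and 187 CPM in normoxic proliferating and at 32, 31.9, 31.6 and 40.1 CPM in normoxic smooth muscle libraries. In the hypoxic groups Cdkn1a was at 361, 358 and 345 CPM, then 473, 447 and 448 CPM, so smooth muscle libraries were the lower ones at 21% O2 and the higher ones at 0.5% O2. Its oxygen difference was 2.59, and its hypoxic change of 0.36 became -0.70 under library-total scaling. Cdkn1c, the p57 inhibitor, rose at both (3.97 and 3.39). Over the 10 tested CDK inhibitor and p53 target genes, 3 oxygen differences were called higher and 5 lower (36.6% and 38.3% over all genes), and 2 and 7 under library-total scaling. Sesn1, a p53 target of the stress response, rose by 2.57 at 21% and fell by 1.10 at 0.5% O2.

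Feedback genes of FGF, ERK and LIF signalling report on growth factors that the proliferation medium contained. Of 20 tested, 15 were called lower at 21% O2 (40% over all genes), 13 by at least 1 (17.6%), and 13 were called lower at 0.5% O2 (40.9%), 10 by at least 1 (20.4%). Oxygen differences were called higher in 12 and lower in 7 (36.6% and 38.3% over all genes). Their median of 1.09 turned to -0.09 under library-total scaling, with 9 called in each direction. By class, 8 falls were kept and 5 lost (5.01% and 9.56% over all genes). The lost ones were those of Dusp4, Dusp5, Etv4, Phlda1 and Ereg, Dusp5 being kept without hypoxic smooth muscle replicate 1. Library-total scaling gave 12 kept falls and 1 lost one, Dusp4. Etv4 encodes an ETS factor downstream of FGF and ERK. It was at 119, 116, 111 and 127 CPM in normoxic proliferating and at 6.12, 3.03, 4.07 and 6.58 CPM in normoxic smooth muscle libraries. Hypoxic libraries held 88.3, 89.5 and 84.2 CPM of Etv4 in proliferating and 74, 101 and 80 CPM in smooth muscle cultures, which overlapped. The log2 change of Etv4 was -4.58 at 21% and -0.04 at 0.5% O2, and the oxygen difference was 4.54 ± 0.24 (SE, adjusted p = 1e-11). Under library-total scaling its hypoxic change was -1.11.

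Dusp6, the ERK phosphatase that is a standard readout of FGF signalling, behaved differently. It was at 91.6, 94.2, 93.2 and 90.4 CPM in normoxic proliferating, 10.9, 8.24, 9.65 and 10.1 CPM in normoxic smooth muscle, 135, 135 and 134 CPM in hypoxic proliferating and 41.8, 36.9 and 39.4 CPM in hypoxic smooth muscle libraries. Dusp6 fell at both oxygen levels without overlap, by 3.25 and by 1.77 on the log2 scale. The AP-1 gene Fosl1 fell at both too, by 5.22 and by 1.61. Among 13 immediate early genes, 9 oxygen differences were called higher and 2 lower (36.6% and 38.3% over all genes). With library totals alone as the scale, 5 were called higher and 4 lower, and the median went from 1.49 to 0.30. Fos rose by 2.74 at 21% and by 4.86 at 0.5% O2, and the rise of Egr1 at 0.5% O2 (3.24) came with levels of 344, 73.8 and 136 CPM, a wide spread.

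Neural crest factors moved in different directions. The tested members numbered 16 of 24, of which 4 had a called oxygen difference above and 9 below 0 (36.6% and 38.3% over all genes), and 3 and 12 under library-total scaling. Twist1, a basic helix-loop-helix factor of the cranial crest, changed by -0.06 at 21% and rose by 2.73 at 0.5% O2. Prrx1, a homeobox factor of facial mesenchyme, rose by 1.38 and fell by 1.33, and Sox9, needed for crest and cartilage, changed by -0.04 and fell by 2.29. Tfap2a rose at both (1.98 and 1.69), and its rise was lost under library-total scaling. Crabp1, a retinoic acid binding protein, fell by 1.87 at 21% O2 and changed by 0.10 at 0.5% O2, where the test did not call it.

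HIF target genes had calls in both directions, in shares near those over all genes. The median log2 change of 21 tested targets was -0.02 at 21% and 0.03 at 0.5% O2. The oxygen difference was called higher in 9 and lower in 6 (36.6% and 38.3% over all genes). Its median of 0.17 turned to -1.02 under library-total scaling, with 3 called higher and 12 lower. Vegfa, the main vessel growth factor, was at 63.7, 64.7, 66.3 and 63.5 CPM in normoxic proliferating, 42.8, 37.9, 42.6 and 45.9 CPM in normoxic smooth muscle, 306, 301 and 306 CPM in hypoxic proliferating and 452, 321 and 450 CPM in hypoxic smooth muscle libraries. Both hypoxic groups were above both normoxic ones. Its oxygen difference of 1.03 turned to -0.15 under library-total scaling. Car12 lost its fall, as given above, but kept it under library-total scaling, where its hypoxic change was -1.07. Stc2, a secreted glycoprotein induced by hypoxia, fell by 2.78 at 21% and by 2.77 at 0.5% O2.

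Glycolysis genes mostly fell in smooth muscle medium at 21% O2, 12 of 17 being called lower and 3 higher (40% and 39.3% over all genes; median -1.29). At 0.5% O2 the median was -0.18. The oxygen difference was called higher in 10 and lower in 5 (36.6% and 38.3% over all genes). Its median of 0.91 turned to -0.27 under library-total scaling, with 7 called higher and 9 lower. Pgk1, phosphoglycerate kinase, was at 853, 898, 920 and 896 CPM in normoxic proliferating and at 217, 195, 192 and 201 CPM in normoxic smooth muscle libraries. The hypoxic proliferating libraries held 5498, 5547 and 6030 CPM and the hypoxic smooth muscle libraries 36750, 38926 and 39831 CPM. The order of the 2 media was thus opposite at the 2 oxygen levels. The log2 change of Pgk1 was -2.15 at 21% and 2.76 at 0.5% O2, and the latter stayed at 1.69 under library-total scaling. Eno1 (enolase, -1.98 and 1.72) and Gapdh (-3.05 and 3.75) reversed likewise, but the fall of Eno1 was lost rather than reversed under library-total scaling (0.66 at 0.5% O2). Gapdh has near-identical copies in the genome, its 4 normoxic proliferating libraries ran from 61.3 to 178 CPM, and its counts are uncertain. Hexokinase 2 (Hk2) fell at both oxygen levels (-2.56 and -2.54). Of 20 nuclear genes of oxidative phosphorylation, 14 oxygen differences were called higher and 1 lower (36.6% and 38.3% over all genes). Their median was 1.55, and 8 of the genes were gained rises (10% over all genes). With library totals alone as the scale, 12 were called higher and 8 lower, with a median of 0.36, whereas 17.5% of all called genes were higher. Of the 20 genes, 3 were then gained rises and 6 gained falls. Cox4i1, a subunit of cytochrome oxidase, was at 245 to 282 CPM in normoxic proliferating, 272 to 319 CPM in normoxic smooth muscle, 265 to 285 CPM in hypoxic proliferating and 2266, 2531 and 2377 CPM in hypoxic smooth muscle libraries.

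Most interferon and antigen presentation genes fell at 0.5% O2. Of 21 tested, 16 were called lower there (40.9% over all genes), 14 by at least 1 (20.4%), and B2m and Psmb8 were called higher, both by at least 1. At 21% O2, 3 were called lower and 9 higher (40% and 39.3% over all genes). The summed level of the list was 1070 to 1092 CPM in hypoxic proliferating and 1142 to 1289 CPM in hypoxic smooth muscle libraries, of which B2m, the light chain of MHC class I, had means of 415 and 839 CPM (log2 change 1.02, or -0.04 under library-total scaling). The oxygen difference was called lower in 15 (38.3% over all genes) and higher in 1 (median -2.42), and 9 were gained falls (10.6% over all genes). Stat2, a transcription factor of the interferon response, was at 27.8, 28.9, 31.6 and 23.3 CPM in normoxic proliferating and 53.7, 49.7, 51 and 53.3 CPM in normoxic smooth muscle libraries. It was at 62, 68.8 and 64.2 CPM in hypoxic proliferating and 14.1, 11.1 and 12.6 CPM in hypoxic smooth muscle libraries, the lowest of all, and it was a reversed rise under library-total scaling. Parp14, a mono-ADP-ribosyltransferase, rose by 0.70 at 21% O2 and fell by 4.49 at 0.5% O2 on the log2 scale.

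Targets of ATF4, the factor of the amino acid stress response, had a median change of -1.46 at 21% and -1.53 at 0.5% O2. Of 16, 9 falls were kept (5.01% over all genes), 8 oxygen differences were called higher and 4 lower (36.6% and 38.3% over all genes). The median difference of 0.24 turned to -0.94 under library-total scaling, with 4 called higher and 10 lower. The amino acid transporter gene Slc7a5 fell by 2.48 at 21% and by 2.39 at 0.5% O2. Of 17 sterol synthesis genes, 5 falls were kept (5.01% over all genes), and 10 oxygen differences were called higher and 6 lower (36.6% and 38.3% over all genes). Under library-total scaling 4 were called higher and 13 lower, where 17.5% of all called genes were higher. The median difference of 0.35 in sterol synthesis genes turned to -0.83. Of 15 endoplasmic reticulum chaperone genes, 5 oxygen differences were called higher and 7 lower (36.6% and 38.3% over all genes). Library-total scaling left 0 called higher and 12 lower and moved the median from -0.12 to -1.31. In the BCL2 family, which governs cell death at the mitochondrion, the pro-death gene Bax fell by 1.35 at 21% and rose by 1.90 at 0.5% O2. Its fall was lost rather than reversed under library-total scaling, which turned the median oxygen difference of 12 tested BCL2 family genes from 0.82 to -0.37. The protective gene Bcl2 rose by 1.26 and fell by 1.07, the fall being 0.97 or 0.94 in size without hypoxic smooth muscle replicate 1 or 2.

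Cytosolic ribosomal protein genes rose together at 0.5% O2. Of 83 tested members of 86, 78 were called lower at 21% O2 (40% over all genes; median -0.73) and 82 higher at 0.5% O2 (32.7%), each of these 82 by at least 1 (18.7%; median 3.24). In 83 of 83 the oxygen difference was called higher (36.6% over all genes), with a median of 3.96, or 2.78 under library-total scaling. By class, 65 were gained rises and 16 reversed falls (10% and 1.9% over all genes), and 68 and 7 under library-total scaling. Many of these genes have near-identical copies among pseudogenes, and the counts of a single member are uncertain. Rplp0, a protein of the ribosomal stalk, changed by -0.43 at 21% and by 3.18 at 0.5% O2. Replication-dependent histone genes, whose mRNA normally ends without a poly(A) tail, had a called oxygen difference above 0 in 36 of 44 and below 0 in 4 (36.6% and 38.3% over all genes; median 4.26). The class of 21 of the 44 turned on a single library. Rn7sk, a small nuclear RNA that also lacks a poly(A) tail, had a mean level of 3.53, 6.15 and 5.52 CPM in normoxic proliferating, normoxic smooth muscle and hypoxic proliferating cells and of 1628 CPM in hypoxic smooth muscle cultures. The study's labels name polyadenylated RNA as the molecule, and the part of RNA without a tail in the other results was not tested.

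Among markers of other cell types, those of chondrocytes were higher in normoxic smooth muscle cultures. Of 9 tested, 7 were called higher at 21% O2, each by at least 1 (21.5% over all genes), and 0 lower, and 5 oxygen differences were called lower and 0 higher (38.3% and 36.6%). Col2a1 had 242 counts over normoxic smooth muscle and 2 over normoxic proliferating libraries, and Col9a2 had 503 and 1. Such members passed the filter on low counts through the group where they were high. The count of 7 was thus partly fixed by the filter, and nothing is drawn from it. The summed level of 14 chondrocyte markers was 26.3 to 36.1 CPM in normoxic proliferating, 999 to 1163 CPM in normoxic smooth muscle, 71.2 to 78.8 CPM in hypoxic proliferating and 10.7 to 17.7 CPM in hypoxic smooth muscle libraries, and Col11a1 alone had a mean of 1042 CPM in normoxic smooth muscle cultures. The 12 osteoblast markers summed to 2067 to 2846 CPM in normoxic proliferating, 733 to 821 CPM in normoxic smooth muscle, 1877 to 2175 CPM in hypoxic proliferating and 922 to 1066 CPM in hypoxic smooth muscle libraries, and Spp1, an adhesion protein of many tissues, fell at both oxygen levels (-1.68 and -1.10). Of 6 osteoblast markers tested, 3 were called higher and 2 lower at 21% O2 (39.3% and 40% over all genes). At 0.5% O2, 1 was called higher and 3 lower (32.7% and 40.9%). Alpl went the other way from Spp1 at 21% O2, with 4 counts over normoxic proliferating and 434 over normoxic smooth muscle libraries. It had 0 counts over the hypoxic smooth muscle libraries. Bglap2 and Sost, of mature bone cells, had 0 counts in all 14 libraries. The 9 adipocyte markers summed to 54.1 to 66.6 CPM in normoxic smooth muscle libraries, of which Lpl had a mean of 57.8 CPM, and to 8.12 CPM at most in the other groups, with Cidec and Lep at 0. The 8 neuron and glia markers summed to 25.3 CPM at most. The 10 skeletal and cardiac muscle markers summed to 2.47 CPM at most in any library, the 6 endothelial ones to 3.23 CPM and the 6 epithelial ones to 3.77 CPM. Myod1, Myog, Myf5, Nkx2-5 and Tie1, which define skeletal muscle, heart and endothelium, had 0 counts in all 14 libraries. The 6 immune markers summed to 3.74 to 4.15 CPM in normoxic and 43.9 to 50.6 CPM in hypoxic smooth muscle libraries, of which Cd68, a lysosomal protein of macrophages and other cells, had a mean of 40.8 CPM in the latter. The part of other cell types in the results was not tested.

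Exon length moved with the hypoxic change. When the protein-coding genes were split into 5 groups of equal number by the summed length of their exons, the median log2 change at 0.5% O2 went from 0.54 in the shortest group (median length 1793 bases) through 0.06, -0.19 and -0.35 to -0.59 in the longest (10031 bases). At 21% O2 it lay between -0.14 and 0.09. The share of normoxic rises that were lost or reversed went from 34.0% in the shortest to 69.6% in the longest group, and the share of falls lost or reversed from 72.9% to 51.5%. The median exon length was 2358 bases in reversed falls and 3104 in gained rises, against 5384 in reversed rises and 6055 in gained falls. The part of length in the results for single gene groups was not tested.

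**Figure D5:**
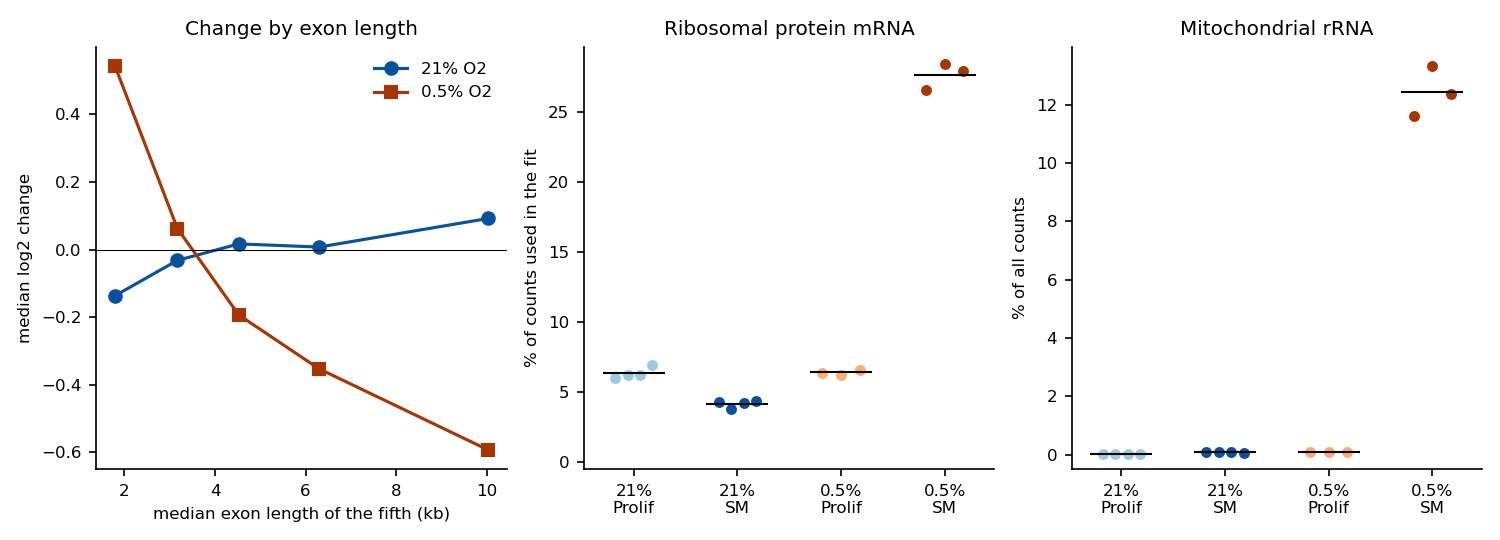
Left, median log2 change in smooth muscle medium at 21% O2 (blue circles) and 0.5% O2 (brown squares) in 5 groups of protein-coding genes by exon length (kb); middle, share of used counts from ribosomal protein mRNA; right, share of all counts from mitochondrial ribosomal RNA, each with a point per library and a line at the group mean. The hypoxic curve drops from 0.54 to -0.59 with length, and the 3 hypoxic smooth muscle libraries lie far above the other 11 in both shares.

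Promoter windows were also searched for the hypoxia response element, as a description of their letters and not of binding. The core bound by HIF was searched on both strands as ACGTG or GCGTG in the same windows. It was present in 6309 of 9923 protein-coding genes (63.6%), and in 57.1% of kept, 66.5% of lost, 57.1% of reversed and 65.1% of gained genes. The CArG box with a single G or C allowed was in 9.70% of kept, 7.87% of lost, 9.21% of reversed and 9.04% of gained genes, against 8.81% overall.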

How the data were processed

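RNA-seq counts of 14 libraries (4 normoxic and 3 hypoxic per medium) were analysed. The authors deposited raw counts per Ensembl gene for all libraries of the study in one table, per the file headers. The submitters' processing notes list HISAT2 2.0.5, StringTie 1.3.3b, featureCounts 1.5.0-p3 and the genome build mm10, without giving roles or the use of strand. A further 10 deposited comparison tables were not used. Of 54429 genes, 54393 matched GENCODE M21 (GRCm38, which is mm10), which gave biotypes, exon lengths and coordinates. Before scaling, 37 mitochondrial genes and 13037 pseudogenes were left out. Low counts were removed with edgeR's filterByExpr by group, which left 14635 genes. One model of the 4 group means was fitted with edgeR 4.0.16 (R 4.3.3; TMM scaling, glmQLFit with robust moderation, glmQLFTest, two-sided), and p-values were adjusted with the Benjamini-Hochberg method over all genes tested. CPM are per 1000000 TMM-scaled counts. Promoters came from a RefSeq table (GRCm38.p6), and entries without a match were left out.

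On simulated counts for this oxygen difference (14635 genes, 200 of them changed), the test recovered 78% and 82% of genes given a log2 of 1 or -1, 100% and 94% of those given 2 or -2 (50 each), and 0.097% of the rest. The comparison, the genes and the 33 gene lists were chosen with earlier results of these data known, so no count over a list is independent support. Genes named beyond the lists were, per class and direction, up to 4 with the largest oxygen difference (for kept genes, the largest smaller change) among those with a symbol, a mean of at least 10 counts in each group and no overlap between the groups defining the class, and a selection of these is given. Replicate numbers were checked for pairing: residuals of same-numbered libraries correlated between -0.0406 and 0.0547 in 19 pairs, so no block was used. Replicates differed beyond counting noise (chi-square per gene 3.94 to 23.2 over 18 pairs). Alternatives were limma-voom, DESeq2, other scaling, other filters, other fold thresholds, a replicate block and leaving out single libraries.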

Additional observations from a re-analysis of the deposited data

Results flagged for a closer look

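Across the 4-library groups, the Dixon test at the 95% level was applied to the genes whose libraries are listed one by one and to measures of the libraries, 50 tests in all, and chance flags about 1 in 20. Of 7 values that stood apart, 6 were in replicate 4 of a normoxic group. In normoxic proliferating replicate 4, Col3a1 was at 634 CPM (others 496 to 508), Col12a1 at 39.1 CPM (23.4 to 25.5), Lox at 61.6 CPM (54.4 to 55.1) and Cdkn1a at 187 CPM (148 to 154). In normoxic smooth muscle replicate 4, Cdkn1a was at 40.1 CPM (31.6 to 32.0) and mitochondrial ribosomal RNA at 0.0597% of counts (0.0719 to 0.0729). In normoxic smooth muscle replicate 3, Col12a1 was at 2419 CPM (2786 to 2857).

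The smooth muscle change differed between the oxygen levels, by the test of the difference itself, in 9517 protein-coding genes, with values of -6.64 for Acta2 and -10.28 for Igsf10 on the log2 scale. Outside the genes tested, the mitochondrial ribosomal RNAs made up 12.4% of counts in hypoxic smooth muscle libraries, against 0.0252% to 0.0889% in the other 11.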

How the results depend on the processing

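Scaling by library totals alone gave 7764 hypoxic changes, 1455 lost, 1367 reversed and 4486 gained genes, and median oxygen differences of -1.02 in HIF targets, -0.271 in glycolysis, -0.0947 in FGF, ERK and LIF feedback, -0.941 in ATF4 targets, -0.833 in sterol synthesis and -0.366 in the BCL2 family, all above 0 as reported. Dcn (-0.997), Tmem74 (-0.885), Pcdh20 (-0.952) and Dkk2 (-0.896) turned too. At least 10 counts in every library, which tests fewer genes, left 444 reversed genes. A log2 threshold of 0.5 gave 7883 normoxic and 7846 hypoxic changes, 2795 kept and 2044 reversed, and one of 2 gave 2200, 1634, 409 kept, 1318 lost, 141 reversed and 966 gained. The median of ER chaperones was 0.0228 with normoxic replicates 1 to 3. Leaving out single libraries put it between -0.184 and 0.0340 and Tmem74 between -0.257 and 0.686. The cause was not tested. The oxygen difference was called in 9621 genes by limma-voom, 9787 by DESeq2, 9450 with a replicate block (the replicate numbers did not pair the libraries) and 9496 with normoxic replicates 1 to 3. Leaving out single libraries gave 9245 to 9611 oxygen differences, 4858 to 5100 normoxic and 4930 to 5195 hypoxic changes, 1323 to 1404 kept, 2184 to 2347 lost, 691 to 756 reversed and 2581 to 2765 gained genes, and changed the class of 108 of 557 listed or named genes at least once. Depth limits Actg2, Eln and Fmod, whose falls are bounds.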
